A study of Mus musculus with 11 samples.

Results

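The interferon-γ-induced GTPases described here were 10 genes, namely the guanylate-binding proteins *Gbp2*, *Gbp3*, *Gbp5* and *Gbp7* and the immunity-related GTPases *Irgm1*, *Irgm2*, *Igtp*, *Iigp1*, *Tgtp2* and *Ifi47*. They were 10 of 24421 genes in the count table, and all 10 were among the 10951 genes tested, those above 1 CPM (read counts scaled to equal library totals) in at least 4 pools. The genes were chosen by their variation between pools of the same genotype, so this variation is given as a description and was not tested. The RNA came from conventional type 1 dendritic cells (cDC1s), the dendritic cells specialised in cross-presentation, which were sorted from B16 melanoma tumors of mice 6 to 14 weeks old. Each of the 11 libraries was made from the tumors of 2 to 4 mice. Controls were 4 pools without Cre, of which pools 1 to 3 were XBP1 fl/fl and pool 4 was XBP1 fl/fl, IRE1 fl/fl. The 4 XBP1ΔDC pools were XBP1 fl/fl with CD11c-CRE, and the 3 XBP1ΔDCIRE1truncDC pools carried CD11c-CRE on both XBP1 fl/fl and IRE1 fl/fl, so no pool was free of floxed alleles. Cre is driven by the CD11c promoter, which is active in dendritic cells in general and in some other CD11c-expressing cells. The transcription factor XBP1s is made when IRE1, a sensor of endoplasmic reticulum stress, splices the *Xbp1* mRNA, and the study asked what loss of either or both does to tumor cDC1s.

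Interferon-γ, released mainly by T and NK cells, binds the receptor of *Ifngr1* and *Ifngr2*, and the signal passes through the kinases JAK1 and JAK2 to GAS elements in promoters. *Irf1* is among the genes induced, and factors of the IRF family bind ISRE elements, so that many interferon-γ-induced genes carry either or both. Guanylate-binding proteins and immunity-related GTPases are known for assembling on vacuoles that hold intracellular pathogens. Among the immunity-related GTPases, *Irgm1*, *Irgm2* and *Igtp* encode regulators that sit on host membranes, and *Iigp1*, *Tgtp2* and *Ifi47* belong to the effectors that these regulators hold in check.

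The 4 *Gbp* genes lay within 144 kb of chromosome 3 (chr3:142493978-142638008, GRCm38) and 5 immunity-related GTPases lay on chromosome 11. The genes on chromosome 11 were 43.3 to 52.7 Mb from *Xbp1* and 48.2 to 57.6 Mb from *Ern1*, the gene of IRE1. Both targeted genes were thus on the same chromosome as these. RefSeq promoter windows (GRCm38.p6, from 250 bases before to 50 bases after the start) were found for 9 of the 10 genes. The window was searched on both strands for TTCNNNGAA, the core of a GAS, and for GAAA, any 2 bases and GAAA, the core of an ISRE. The ISRE letters occurred in 8 of 9 genes (88.9%) and in 3.92% of the 8472 tested genes that had a window. The GAS letters occurred in 5 of 9 genes (55.6%) and in 8.25% of those tested genes. Neither occurred in the window of *Ifi47*. In *Igtp*, *Irgm2* and *Tgtp2* a GAS preceded an ISRE by a gap of 2 bases, an arrangement found in 5 of 32851 RefSeq windows (0.0152%), the others being those of *Tgtp1* and *Gm12185*. *Gbp7* held the GAS and ISRE letters farther apart, and *Gbp2* and *Irgm1* held the ISRE letters without a GAS. The 120 bases before the start of these 6 genes are given 5′ to 3′ on the gene's strand, to show the paired and the unpaired arrangement, with the matches in capitals:
Igtp, chr11:58199436-58199555, plus strand: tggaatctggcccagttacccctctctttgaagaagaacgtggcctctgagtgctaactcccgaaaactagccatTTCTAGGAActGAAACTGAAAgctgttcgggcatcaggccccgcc
Irgm2, chr11:58214857-58214976, plus strand: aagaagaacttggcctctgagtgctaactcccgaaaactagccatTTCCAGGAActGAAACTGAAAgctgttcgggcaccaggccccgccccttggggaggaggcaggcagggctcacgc
Tgtp2, chr11:49064213-49064332, minus strand: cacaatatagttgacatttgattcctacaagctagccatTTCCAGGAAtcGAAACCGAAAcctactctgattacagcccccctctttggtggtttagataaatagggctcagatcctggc
Gbp7, chr3:142530216-142530335, plus strand: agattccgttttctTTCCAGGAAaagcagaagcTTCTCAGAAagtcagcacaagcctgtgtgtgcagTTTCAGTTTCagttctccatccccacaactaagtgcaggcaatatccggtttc
Gbp2, chr3:142620543-142620662, plus strand: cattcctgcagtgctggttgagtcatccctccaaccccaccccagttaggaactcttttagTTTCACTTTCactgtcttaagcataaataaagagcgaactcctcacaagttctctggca
Irgm1, chr11:48871421-48871540, minus strand: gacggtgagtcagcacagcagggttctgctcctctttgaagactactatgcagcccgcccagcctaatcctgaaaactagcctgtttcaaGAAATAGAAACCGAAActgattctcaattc
A match shows these letters in the window and was not tested as a binding site.

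**Figure D1:**
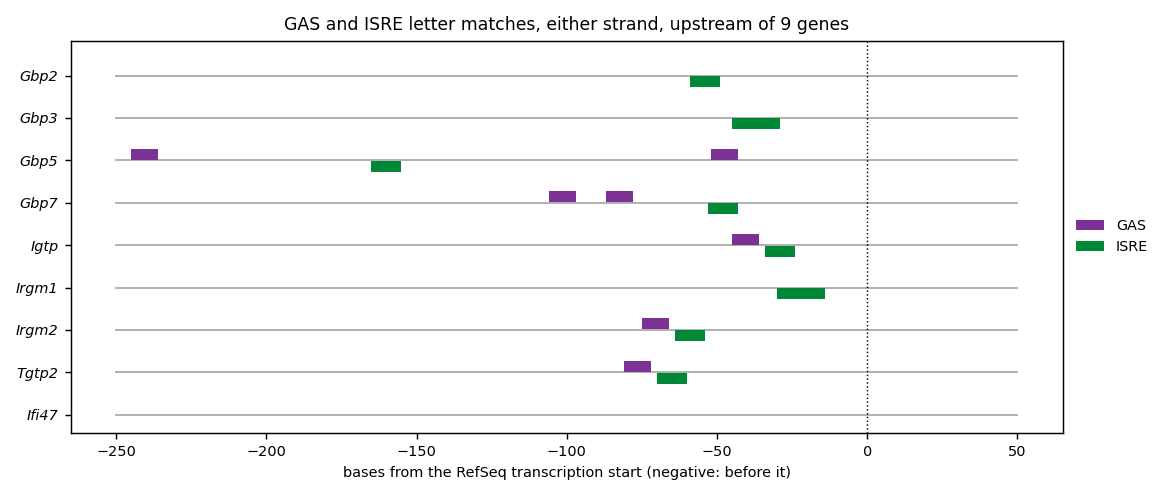
Positions of GAS (TTCNNNGAA) and ISRE (GAAA, any 2 bases, GAAA) letter matches on either strand, in bases from the RefSeq transcription start (x axis), for the 9 genes with a promoter window (rows). In *Igtp*, *Irgm2* and *Tgtp2* a GAS lies directly before an ISRE, and *Ifi47* has no match.

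Total counts ranged from 21089065 to 26843486 per pool. The 12 cDC1 markers, among them *Xcr1*, *Clec9a* and *Batf3*, summed to 13331 to 14626 CPM in controls. The sums were 11197 to 12557.5 CPM in XBP1ΔDC and 12197 to 13031 CPM in XBP1ΔDCIRE1truncDC pools, below all controls. *Naaa*, of this list, had log2 fold changes of -0.51 and -0.33 against controls (adjusted p = 0.000495 and 0.0396 from edgeR), below the fold limit of 1.5. Of the 12, 0 passed the test, and 4 and 5 had log2 fold changes above 0. *Xbp1* was 244, 249, 254 and 271 CPM in controls, 130.1, 152, 161 and 165 CPM in XBP1ΔDC and 212, 236 and 179 CPM in XBP1ΔDCIRE1truncDC pools. Its fall passed the test in XBP1ΔDC cells (log2 fold change -0.74, adjusted p = 0.00167 from edgeR) and missed it in XBP1ΔDCIRE1truncDC cells (-0.29, adjusted p = 0.324), where the pools still lay below all controls. The study states that XBP1ΔDC cells still make *Xbp1* mRNA. A gene count includes the exons that are kept. It thus does not check the deletion in *Xbp1* or the truncation of *Ern1*, which encodes IRE1.

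Per kilobase of exon, *Gbp2* was the most abundant of the 10 genes (mean over pools 33.4 CPM per kb), followed by *Ifi47* (22.1), *Irgm1* (21.7) and *Igtp* (20.01). *Iigp1*, *Gbp5*, *Gbp3*, *Tgtp2* and *Irgm2* lay between 6.33 and 8.82 CPM per kb and *Gbp7* was lowest at 1.87. *Iigp1* was the only one of the 10 on chromosome 18. *Tgtp2* is uncertain as a separate gene, since 86.6% of the 50-base stretches of its transcripts also occurred in other genes, mainly *Tgtp1*. *Gbp7* shared 12.7% and *Igtp* 11.8%, the latter with *Irgm2*, and the other 7 genes shared at most 7.83%. Exons of *Gbp7* overlapped those of *Gm43802* on the same strand (11.3% of the exon length). *Igtp* and *Irgm2* overlapped each other in this way (8.01% and 4.39% of their exon lengths). Exons of *Ifi47* overlapped those of *Olfr56* on the same strand (4.49%) and of *Gm12188* on the opposite strand (4.29%). Reads from such stretches may not be told apart.

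The GTPases differed widely between pools of the same genotype, and they did so together. Summed over the 10 genes, controls had 426, 309, 473 and 318 CPM, XBP1ΔDC pools 743, 397, 620 and 236 CPM, and XBP1ΔDCIRE1truncDC pools 370, 1036 and 452 CPM. XBP1ΔDCIRE1truncDC pool 2 was thus the highest and XBP1ΔDC pool 4 the lowest. XBP1ΔDC pools 1 and 3 also lay above all controls, and the other pools with Cre, apart from pool 4, lay within the control range. In bulk RNA, fewer cells of a type and less RNA per cell cannot be told apart. Pool 2 of XBP1ΔDCIRE1truncDC had the highest value of all 11 pools for 9 of the 10 genes, and it was the highest pool for 12.7% of all genes tested. XBP1ΔDC pool 4 had the lowest value for 5 of the 10, and it was lowest for 8.71% of all genes tested. The standard deviation of log2 CPM around the genotype means had a median of 0.70 over the 10 genes, from 0.47 for *Irgm1* to 1.26 for *Iigp1*, and of 0.219 over all genes tested. The spread expected from counting alone was at most 0.103 on the same scale, for *Gbp7*.

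*Iigp1*, an effector of the immunity-related GTPases, varied most. It was 30.4, 25.8, 52.0 and 34.1 CPM in controls, 75.2, 12.2, 70.5 and 15.4 CPM in XBP1ΔDC and 25.0, 201 and 23.5 CPM in XBP1ΔDCIRE1truncDC pools. The XBP1ΔDC pools fell into a pair above and a pair below all controls, and 1 XBP1ΔDCIRE1truncDC pool stood 8.30-fold above the mean of the other two, which lay just under the controls. *Tgtp2*, another effector, was 13.0, 13.3, 21.2 and 11.6 CPM in controls, 29.7, 15.0, 27.3 and 8.0 CPM in XBP1ΔDC and 11.6, 44.2 and 12.3 CPM in XBP1ΔDCIRE1truncDC pools. As for *Iigp1*, XBP1ΔDC pools 1 and 3 and XBP1ΔDCIRE1truncDC pool 2 lay above all controls and XBP1ΔDC pool 4 below them. *Ifi47*, also an effector, was 48.0, 45.1, 60.8 and 35.8 CPM in controls, 83.7, 56.3, 75.3 and 21.5 CPM in XBP1ΔDC and 33.3, 100.2 and 40.9 CPM in XBP1ΔDCIRE1truncDC pools. Its groups overlapped too, with XBP1ΔDC pool 4 the lowest of all.

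The regulators followed the same pools with a smaller range. *Irgm1*, whose product is known for its part in autophagy and in control of the effectors, ranged 2.82-fold over the 11 pools, from 72.8 CPM in XBP1ΔDC pool 4 to 205 CPM in XBP1ΔDCIRE1truncDC pool 2. It was 124, 100.3, 133 and 100.8 CPM in controls, 159, 115, 169.8 and 72.8 CPM in XBP1ΔDC and 108, 205 and 96.4 CPM in XBP1ΔDCIRE1truncDC pools. XBP1ΔDC pools 1 and 3 stood above the controls here as well. *Igtp* (Irgm3) was 33.5, 27.4, 40.1 and 31.8 CPM in controls, 54.7, 29.8, 58.8 and 21.2 CPM in XBP1ΔDC and 29.7, 87.5 and 30.6 CPM in XBP1ΔDCIRE1truncDC pools. *Irgm2* was 20.98, 16.6, 23.3 and 16.9 CPM in controls, 25.6, 21.3, 34.0 and 12.3 CPM in XBP1ΔDC and 20.8, 47.0 and 17.99 CPM in XBP1ΔDCIRE1truncDC pools. For all 3 regulators, XBP1ΔDC pool 4 lay below and XBP1ΔDCIRE1truncDC pool 2 above every other pool.

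Among the guanylate-binding proteins, *Gbp2* and *Gbp5* were also high in XBP1ΔDCIRE1truncDC pool 3. *Gbp2* was 79.9, 42.4, 53.0 and 30.8 CPM in controls, 169, 81.8, 86.1 and 38.0 CPM in XBP1ΔDC and 66.9, 149 and 128 CPM in XBP1ΔDCIRE1truncDC pools. *Gbp5*, known for promoting inflammasome assembly, was 47.6, 23.9, 52.7 and 30.2 CPM in controls, 94.7, 41.9, 56.5 and 28.9 CPM in XBP1ΔDC and 44.2, 122 and 70.7 CPM in XBP1ΔDCIRE1truncDC pools. Of the 10 genes, these were the 2 for which XBP1ΔDCIRE1truncDC pool 3 lay above all controls, at 1.91-fold and 1.60-fold the level of pool 1. *Gbp3* was 19.8, 10.996, 24.1 and 15.6 CPM in controls, 41.3, 19.0, 28.1 and 11.2 CPM in XBP1ΔDC and 21.1, 54.2 and 22.6 CPM in XBP1ΔDCIRE1truncDC pools. *Gbp7* was 8.52, 3.55, 12.1 and 10.4 CPM in controls, 9.601, 4.76, 14.2 and 7.22 CPM in XBP1ΔDC and 9.81, 26.5 and 8.48 CPM in XBP1ΔDCIRE1truncDC pools. Both had their lowest value in control pool 2 and their highest in XBP1ΔDCIRE1truncDC pool 2, with XBP1ΔDCIRE1truncDC pool 3 inside the control range. The 4 *Gbp* genes made up 50.9% of the GTPase sum in XBP1ΔDCIRE1truncDC pool 3 and 26.1% to 42.4% in the other pools.

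**Figure D2:**
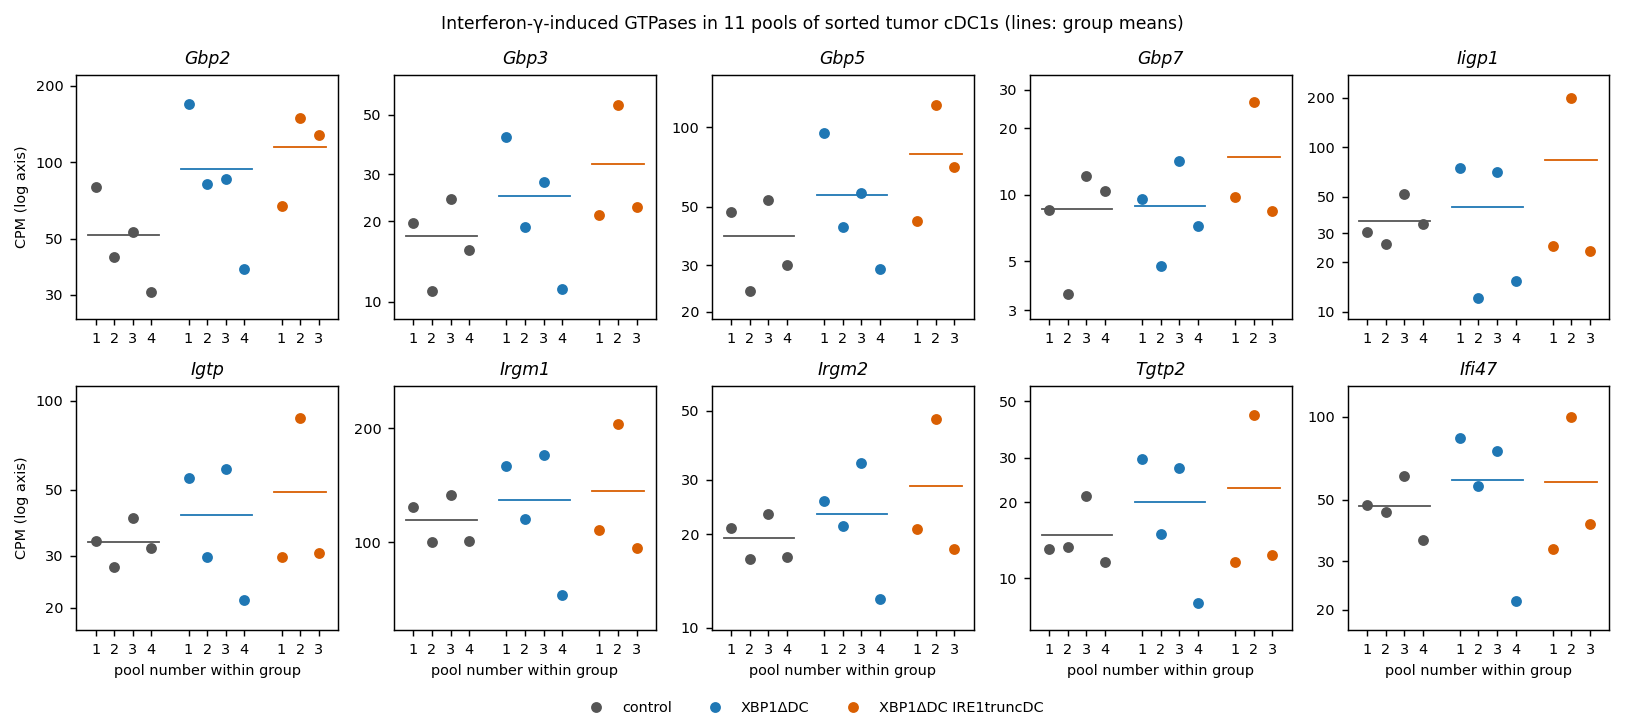
CPM (log axis) of each of the 10 GTPases (panels) in the 11 pools, with points coloured by genotype, the pool number on the x axis and lines at group means. XBP1ΔDCIRE1truncDC pool 2 is the highest point for 9 genes, and the groups overlap for all 10.

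As a description over the 11 pools, the deviations of 2 GTPases from their genotype means had a median Pearson r of 0.85 over the 45 pairs, from 0.28 to 0.99, and of 0.81 without XBP1ΔDCIRE1truncDC pool 2. *Igtp* followed the mean of the other 9 most closely (r = 0.98) and *Gbp2* least (r = 0.70). All pools share the normalisation, and depth was similar.

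The comparison of genotypes used the fit across all genes. In XBP1ΔDC cells, 0 of the 10 GTPases passed the test against controls (adjusted p below 0.05 and a fold change above 1.5), where 0.493% of all genes passed. None had an unadjusted p below 0.05 (7.62% of all genes), and for none did the pools of both groups separate (5.31% of all genes). All 10 had a log2 fold change above 0, as had 51.2% of all genes, with a median of 0.31 against 0.0050 over all genes. *Gbp2* had the largest, 0.86 with a standard error of 0.40 (93.8 CPM ± 54.8 SD, n = 4, against 51.5 ± 20.98, n = 4, adjusted p = 0.663 from edgeR). Without XBP1ΔDC pool 1, *Gbp2* was 0.41. *Gbp7* had the smallest, 0.050 with a standard error of 0.44, and the other 8 lay between 0.17 (*Irgm1*) and 0.52 (*Gbp5*). The median was 0.14 without XBP1ΔDC pool 1, 0.14 without pool 3 and 0.58 without pool 4. *Iigp1* was 0.28 with a standard error of 0.71, and its sign turned without XBP1ΔDC pool 1 (-0.12) or pool 3 (-0.053).

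In XBP1ΔDCIRE1truncDC cells, 0 of the 10 passed against controls, where 0.21% of all genes passed, and 2 had an unadjusted p below 0.05 (11.2% of all genes). These were *Gbp2*, with a log2 fold change of 1.15 and a standard error of 0.43 (114.7 CPM ± 42.8 SD, n = 3, adjusted p = 0.326 from edgeR), and *Gbp5*, with 1.03 and a standard error of 0.40 (adjusted p = 0.351 from edgeR). The other genes lay between 0.25 (*Irgm1*) and 1.22 (*Iigp1*). All 10 log2 fold changes were above 0 (49.4% of all genes), with a median of 0.70 against -0.0031 over all genes, and for 0 of the 10 did the groups separate (10.1% of all genes). This direction rested on XBP1ΔDCIRE1truncDC pool 2. Without it, 6 of the 10 log2 fold changes were below 0 and the median was -0.071, while *Gbp2* was 0.92 and *Gbp5* was 0.57. *Iigp1* went from 1.22 with a standard error of 0.75 to -0.55. For 5 genes, *Igtp*, *Iigp1*, *Irgm1*, *Tgtp2* and *Ifi47*, the median of the 3 XBP1ΔDCIRE1truncDC pools was below the control median although the mean was above the control mean.

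Between XBP1ΔDCIRE1truncDC and XBP1ΔDC cells, 0 of the 10 passed, where 0.0731% of all genes passed, and 0 had an unadjusted p below 0.05 (5.29% of all genes). The log2 fold change was above 0 for 9 (50.4% of all genes) with a median of 0.29 against 0.0015, and for 0 did the groups separate (6.07% of all genes). *Iigp1* had the largest, 0.94 with a standard error of 0.75 (adjusted p = 0.967 from edgeR), and *Ifi47* the smallest, -0.027 with a standard error of 0.42. Without XBP1ΔDCIRE1truncDC pool 2 the median was -0.30 and 7 were below 0. The order of group means was control, XBP1ΔDC, XBP1ΔDCIRE1truncDC for 9 of the 10 genes, and no difference between neighbours in that order passed the test, for any of the 10. These comparisons share their groups and are not independent of each other. The median standard error of the GTPases was 0.39, 0.42 and 0.42 in the 3 comparisons, against 0.15, 0.16 and 0.16 over all genes.

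**Figure D3:**
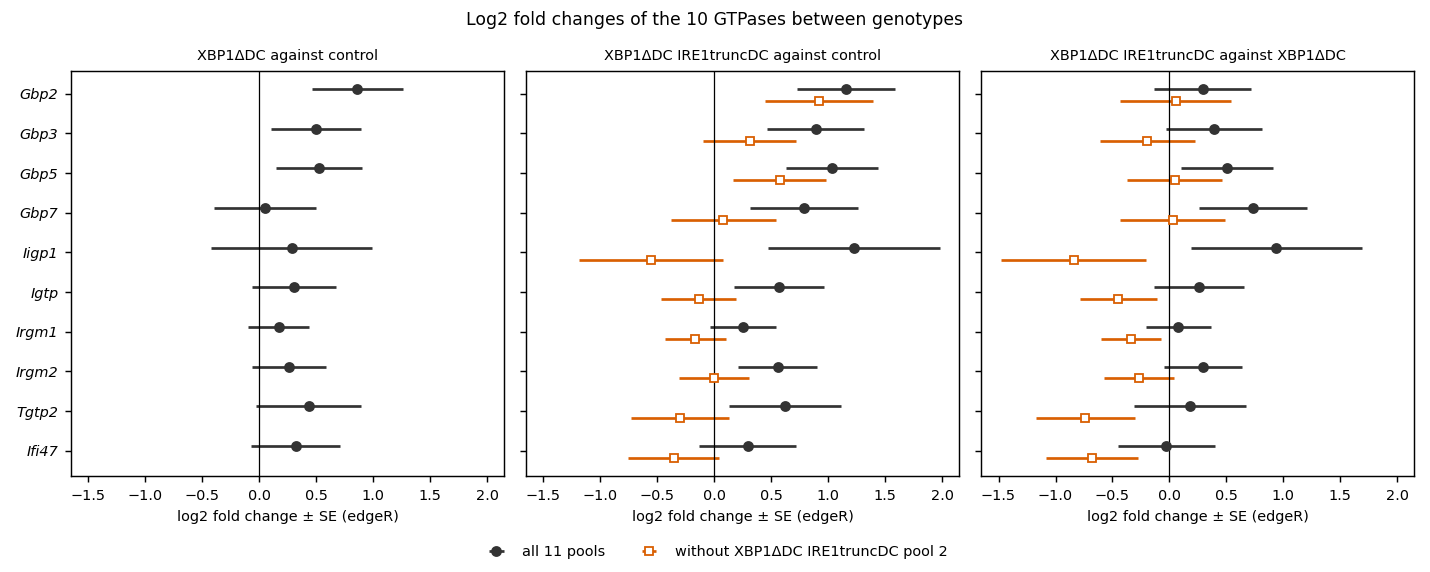
Log2 fold change ± standard error from edgeR (x axis) of the 10 GTPases (rows) in the 3 genotype comparisons, with all 11 pools (filled) and without XBP1ΔDCIRE1truncDC pool 2 (open). The median against controls goes from 0.70 to -0.071 without that pool.

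The other genes of the 2 families showed 0 calls in any comparison, where 0.493%, 0.21% and 0.0731% of all genes passed. None of the other immunity-related GTPases tested had an unadjusted p below 0.05. Of the other immunity-related GTPases, 6 of 11 in the table were tested, and 4 had their highest value in XBP1ΔDCIRE1truncDC pool 2. *Tgtp1*, the near-copy of *Tgtp2*, was 15.1, 9.07, 20.9 and 11.9 CPM in controls, 32.9, 13.0, 30.6 and 8.0 CPM in XBP1ΔDC and 13.7, 58.2 and 19.8 CPM in XBP1ΔDCIRE1truncDC pools. Of the other guanylate-binding proteins, 4 of 7 were tested, and none was highest in that pool. *Gbp4* was highest at 50.7 CPM in XBP1ΔDCIRE1truncDC pool 3, against 24.0 and 40.3 CPM in pools 1 and 2, 18.8 to 45.7 CPM in XBP1ΔDC and 9.63 to 28.0 CPM in controls. *Gbp9* was also highest there, at 41.5 CPM, against 17.9 to 38.9 CPM in XBP1ΔDC and 15.3 to 25.0 CPM in controls. *Gbp4*, *Gbp8*, *Gbp9*, *Gbp2* and *Gbp5* were thus each above all controls in pool 3, while *Gbp2b*, *Gbp3* and *Gbp7* were inside the control range in it. Dendritic cell maturation genes, among them *Ccr7*, *Fscn1* and *Il12b*, also stood high there. All 12 lay above their genotype mean in that pool, and their sum was 13966 CPM, against 9087 and 7629 CPM in pools 1 and 2, 5696 to 10333 CPM in XBP1ΔDC and 5089 to 8322 CPM in controls. Maturation genes were also high in XBP1ΔDC pool 1 (12 of 12 above the genotype mean), the pool with the highest *Gbp2* value. They were low for their genotype in the other pools with the most GTPase RNA. There, 0 of 12 lay above the genotype mean in XBP1ΔDCIRE1truncDC pool 2 and 1 of 12 in XBP1ΔDC pool 3. In control pools 1 to 4, 11, 0, 12 and 1 of the 12 lay above it. The GTPase sums of these control pools were 426, 309, 473 and 318 CPM. Against controls, 9 of the 12 had an unadjusted p below 0.05 in XBP1ΔDCIRE1truncDC cells (11.2% of all genes) and 0 passed the test. The part of maturation in the *Gbp* levels was not tested.

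Along the interferon-γ pathway, levels were followed from ligand to targets. *Ifng*, the ligand, was at 0 in 9 of the 11 pools, with 5 counts in control pool 2 and 3 counts in XBP1ΔDCIRE1truncDC pool 2. Of the 12 listed ligand, receptor and signalling genes, 11 were tested and 0 passed in any comparison. In XBP1ΔDCIRE1truncDC cells against controls, 5 of the 11 had an unadjusted p below 0.05 (11.2% of all genes), and in the other comparisons 0 had. *Ifngr1*, the receptor chain that binds the ligand, was lowest where the GTPases were highest, at 240 CPM in XBP1ΔDCIRE1truncDC pool 2 and 284 and 299 CPM in XBP1ΔDC pools 3 and 1, while every other pool had 393 to 510 CPM. Over the 11 pools its deviations had an r of -0.80 with the GTPase mean, and of -0.65 without XBP1ΔDCIRE1truncDC pool 2. The other receptor chain, *Ifngr2*, was 130 to 154 CPM in all pools, with an r of 0.063. *Jak1* and *Jak2* had an r of -0.50 and 0.14, and of -0.23 and 0.075 without that pool. *Irf1* ranged from 142 CPM in control pool 2 to 449 CPM in XBP1ΔDCIRE1truncDC pool 2, with 448 CPM in pool 3 of that group. Against controls its log2 fold change was 0.87 with a standard error of 0.27 in XBP1ΔDCIRE1truncDC cells, which had an unadjusted p below 0.05 but did not pass (adjusted p = 0.238 from edgeR). Of 30 other interferon-γ response genes 29 were tested, and of 28 type I interferon response genes 27 were tested, with 0 calls in any comparison in either list. In XBP1ΔDCIRE1truncDC cells against controls, 7 of the 29 and 4 of the 27 had an unadjusted p below 0.05 (11.2% of all genes). For XBP1ΔDC against controls 3 of the 29 and 2 of the 27 had (7.62% of all genes). Between both genotypes with Cre, 1 of the 29 and 4 of the 27 had (5.29% of all genes). The median standard deviation within genotypes was 0.28 and 0.48 in these lists. *Tapbp*, a peptide-loading gene of MHC class I, fell by 0.53 on the log2 scale in XBP1ΔDC cells (adjusted p = 0.0427 from edgeR), a fold change below the limit of 1.5. In XBP1ΔDCIRE1truncDC cells its log2 fold change against controls was 0.16 (adjusted p = 0.705 from edgeR). Its deviations had an r of 0.050 with the GTPase mean.

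The 10 genes outside the GTPase list whose deviations were most like the GTPase mean had r between 0.94 and 0.99 over the 11 pools. These were *Tgtp1*, *Serpina3g*, *Cox8a*, *Ly6c2*, *Gm12185*, *Cxcl11*, *Gm12250*, *Gpr33*, *Cxcl9* and *Tap1*. All 10 were highest in XBP1ΔDCIRE1truncDC pool 2, which in part follows from picking them by r, since the GTPase deviation was largest there. Without that pool their r was between 0.90 (*Cxcl9*) and 0.99 (*Tgtp1*). *Tgtp1* and *Gm12185* share transcript sequence with *Tgtp2*. *Cxcl9*, a chemokine that draws T cells and a known interferon-γ target, was 86.6, 59.9, 61.5 and 46.8 CPM in controls, 131, 47.8, 127 and 31.6 CPM in XBP1ΔDC and 33.9, 182 and 47.6 CPM in XBP1ΔDCIRE1truncDC pools. *Ly6c2*, which is also among the macrophage and monocyte markers listed, was 48.0 CPM in XBP1ΔDCIRE1truncDC pool 2 and between 2.25 and 17.1 CPM in the other pools. *Serpina3g*, a protease inhibitor gene, ranged from 87.4 to 644 CPM, with its extremes in the same pools as the regulators. *Tap1*, a subunit of the peptide transporter for MHC class I loading, moved with the GTPases over a narrow range of 1040.5 to 1459 CPM. The range of *Cox8a* was narrower still, from 174 to 199 CPM. *Cxcl11* was near the floor, with a mean of 0.94 CPM and 0 CPM in XBP1ΔDC pool 4 and XBP1ΔDCIRE1truncDC pool 1.

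**Figure D4:**
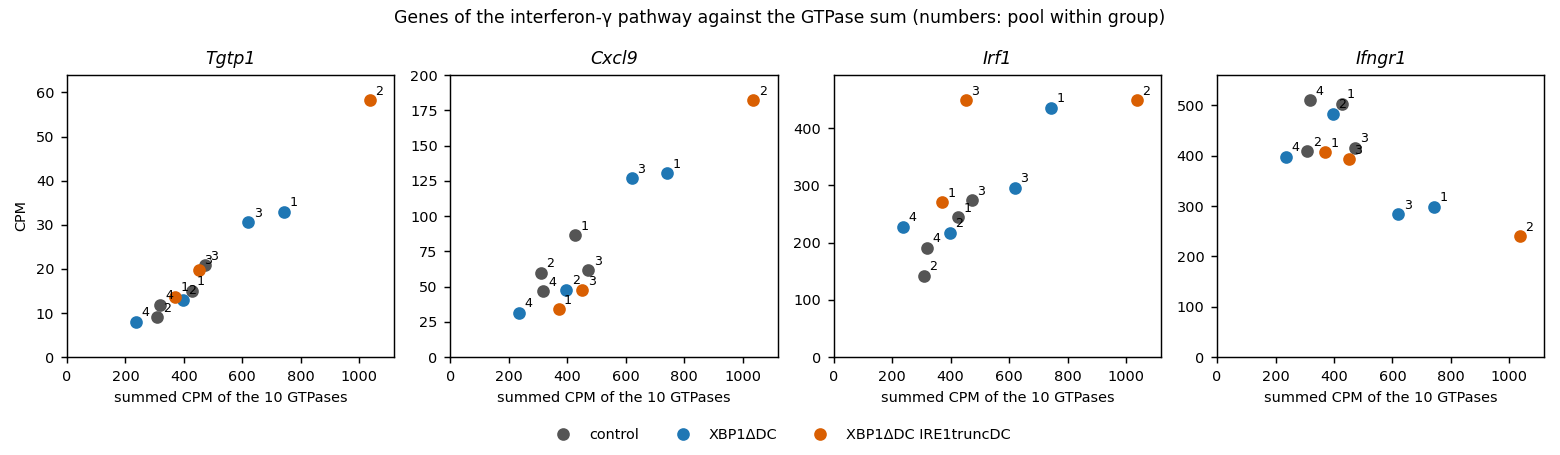
CPM of *Tgtp1*, *Cxcl9*, *Irf1* and *Ifngr1* (y axes, from 0) against the summed CPM of the 10 GTPases (x axis) in the 11 pools, coloured by genotype and numbered by pool. *Tgtp1* and *Cxcl9* are highest and *Ifngr1* is lowest, at 240 CPM, in XBP1ΔDCIRE1truncDC pool 2, where the sum is 1036 CPM.

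Other features of the high and low pools were as follows. T and NK cell markers (13 of 14 in the table, none at 0 in all pools) summed to 8.75 to 15.9 CPM in controls, 10.6 to 18.4 CPM in XBP1ΔDC and 10.2 to 33.8 CPM in XBP1ΔDCIRE1truncDC pools, with 10.2 CPM in pool 2, where the GTPases were highest. Only *Klrd1* of this list passed the filter on low values, and it made up 6.99 CPM of the sum in that pool, its lowest level of all pools. The other T and NK cell markers summed to 3.26 CPM there, against 18.1 CPM in pool 1 of that group and 0.67 to 3.85 CPM in the remaining pools. Macrophage and monocyte markers (13 of 13) summed to 1211 to 1792, 1232 to 1727 and 1003 to 1851 CPM, and pool 2 was the lowest of all at 1003 CPM. *Lyz2* and *Ccr2* made up 876 CPM of that sum, and without them pool 2 had 128 CPM, inside the range of 107 to 203 CPM of all pools. Relative to the genotype means the list did not follow the GTPases in pool 2 (mean deviation 0.041 on the log2 scale, 7 of 13 genes above). XBP1ΔDC pool 3, where the GTPases were high, had the highest mean deviation (0.76, 10 of 13 above), and the complement genes *C1qa*, *C1qb* and *C1qc* summed to 52.7 CPM in it, against 4.75 to 28.1 CPM in the other pools. XBP1ΔDC pool 1, also high in GTPases, had a mean deviation of -0.53 and 2 of 13 genes above. B cell markers (2 of 6 at 0 in all pools) and neutrophil markers (1 of 6 at 0 in all pools) summed to at most 2.99 and 2.01 CPM in any pool, and plasmacytoid and type 2 dendritic cell markers to at most 47.7 and 68.0 CPM. The type 2 markers were 63.6 CPM in XBP1ΔDC pool 3, the highest of its group, and 28.7 CPM in XBP1ΔDC pool 1, the lowest. Melanoma markers were 64.7 CPM in XBP1ΔDC pool 4, where the GTPases were lowest, and 10.2 CPM in XBP1ΔDCIRE1truncDC pool 2, but control pool 3, high in GTPases for its group, had 53.5 CPM. *Xist*, which is expressed from the inactive X chromosome of females, was 0, 48.0 and 0.43 CPM in XBP1ΔDCIRE1truncDC pools 1 to 3 and the Y-linked *Ddx3y* was 73.9, 14.9 and 83.8 CPM in them, so both set pool 2 apart from the other pools of its group. In controls *Xist* was 34.6, 61.6, 15.5 and 35.6 CPM and in XBP1ΔDC pools 24.2, 49.2, 70.2 and 16.2 CPM. The part of pool composition in the GTPase levels was not tested.

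**Figure D5:**
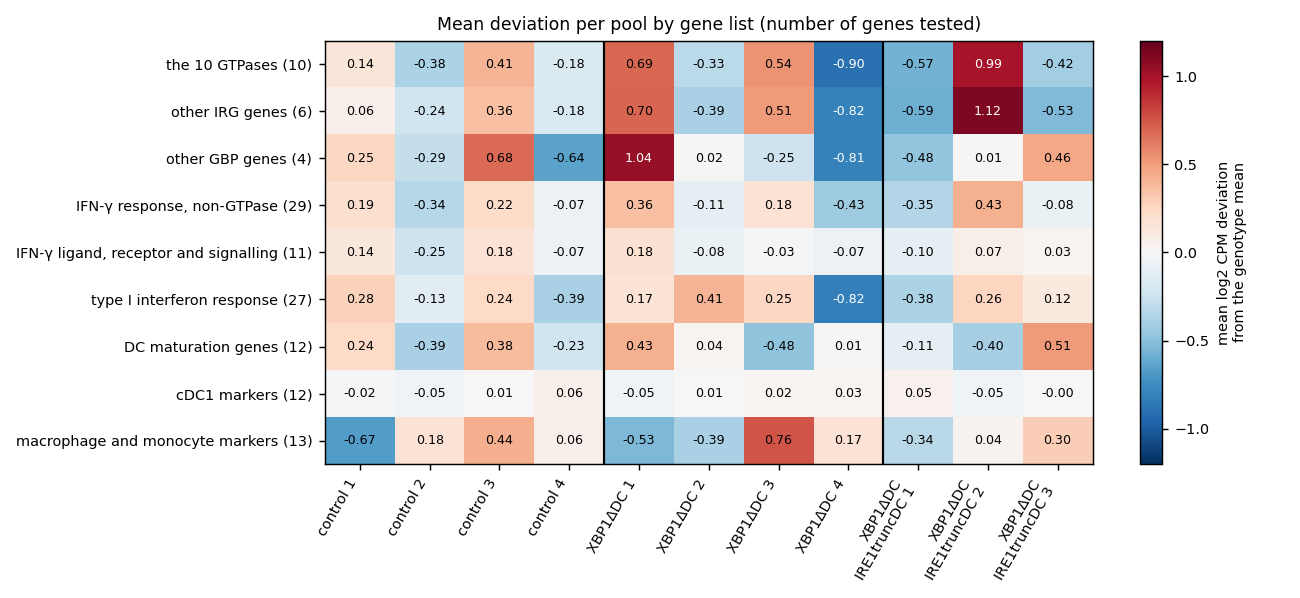
Mean deviation of log2 CPM from the genotype mean (colour and printed value) for 9 gene lists (rows, with the number of genes tested) in the 11 pools (columns). The GTPases and other immunity-related (IRG) genes reach 0.99 and 1.12 in XBP1ΔDCIRE1truncDC pool 2, where the other guanylate-binding protein (GBP) genes are at 0.01 and the cDC1 markers at -0.05.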

How the data were processed

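RNA from sorted tumor cDC1s was sequenced as 11 pools. The authors trimmed reads with Trimmomatic 0.39, aligned them with STAR 2.7.3a to mm10 and deposited raw counts per gene symbol made with HTSeq-count, with the annotation not given in the sources used here. They also deposited log2 CPM values normalized with limma 3.42.2, used only as an alternative. The counts were fitted with edgeR 4.0.16 after keeping genes that exceeded 1 CPM in 4 or more pools (quasi-likelihood test, TMM, all 11 pools in 1 fit, Benjamini-Hochberg over 10951 genes). CPM are TMM-scaled. Alternatives were DESeq2 1.42.0, limma-voom 3.58.1, other scaling and filters, fits of 2 groups, a replicate block and leaving out each pool. The procedures were tested on simulated data. Gene models were from GENCODE (GRCm38). The members and lists were chosen with earlier results of these data known. Named genes were the 10 GTPases, the targeted genes, at most 5 of highest mean CPM per interferon or GTPase list with a few preset pathway genes, and the 10 genes of most like pattern. Values of 1 pathway gene are not reported here. *Xist*, *Ddx3y*, *Ifngr2*, *Olfr56*, *Gm12188*, *Gm43802* and the marker and maturation genes named were added after their values were seen. No 2 pools of the same genotype agreed within sampling noise (chi-square per degree of freedom at least 21.2). Pools differ in their mice, and p-values measure the spread between pools. Depth was 21089065 to 26843486 counts per pool, and the smallest member count was 96.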

Additional observations from a re-analysis of the deposited data

How the results depend on the processing

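In each comparison 0 GTPases passed the test, and 0 passed under any of the 20 alternatives or without the fold change limit. The smallest adjusted p of any GTPase under an alternative was 0.356 for XBP1ΔDC against controls, 0.236 for XBP1ΔDCIRE1truncDC against controls and 0.773 between both. By DESeq2 and by limma-voom, 0, 2 and 0 GTPases had an unadjusted p below 0.05. Leaving out 1 pool at a time, the median log2 fold change ranged from 0.14 to 0.58, from -0.071 to 0.99 and from -0.30 to 0.59 in the 3 comparisons. The low ends of the last 2 were without XBP1ΔDCIRE1truncDC pool 2. The median standard deviation within genotypes ranged from 0.59 to 0.74.

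Of 600 single-gene log2 fold changes under alternatives, 27 had the opposite sign, most of them without 1 pool. Their ranges are given over the pools left out. For XBP1ΔDC against controls, the sign turned for *Gbp7* (-0.26 to 0.26) and *Iigp1* (-0.12 to 0.60). For XBP1ΔDCIRE1truncDC against controls, the sign turned for *Igtp* (-0.14 to 0.83), *Iigp1* (-0.55 to 1.67), *Irgm1* (-0.17 to 0.45), *Irgm2* (-0.0023 to 0.80), *Tgtp2* (-0.30 to 0.93) and *Ifi47* (-0.35 to 0.57). For XBP1ΔDCIRE1truncDC against XBP1ΔDC, the sign turned for *Gbp3* (-0.19 to 0.75), *Igtp* (-0.45 to 0.52), *Iigp1* (-0.84 to 1.38), *Irgm1* (-0.34 to 0.28), *Irgm2* (-0.27 to 0.54), *Tgtp2* (-0.74 to 0.50) and *Ifi47* (-0.68 to 0.25). *Iigp1* in XBP1ΔDC against controls was also -0.11 by limma-voom and -0.12 from the log2 table. The cause was not tested.

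Replicate numbers did not pair the pools in the same way in the 3 comparisons. Over all genes, the mean correlation of same-numbered pools was 0.098, 0.0035 and -0.22. Over the GTPases alone, every same-numbered pair of XBP1ΔDC and control pools had a positive correlation, from 0.15 to 0.79. Differently numbered pairs of these groups ranged from -0.85 to 0.64. Same-numbered pairs ranged from -0.56 to 0.088 for XBP1ΔDCIRE1truncDC and controls, and from -0.96 to -0.83 for XBP1ΔDCIRE1truncDC and XBP1ΔDC. With the replicate block the medians were 0.23, 0.53 and 0.17 and 0 GTPases passed. *Ifi47* was then -0.051 in XBP1ΔDCIRE1truncDC against controls, and *Irgm1* and *Tgtp2* were -0.044 and -0.089 against XBP1ΔDC. The standard deviation within genotypes was 0.47 to 1.26 over the 10 GTPases, and counting alone would give at most 0.103. What limits these comparisons was not tested.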
